A study of Mus musculus and Homo sapiens
Mus musculus with 14 samples.

Results

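The comparison set 5 Light-Seq libraries of TH-negative amacrine cells against 4 libraries of the ganglion cell layer (GCL), 9 of the 22 retina libraries in a series of 14 samples. In Light-Seq, RNA is reverse transcribed inside a fixed tissue section and light attaches a DNA barcode to the cDNA of the cells that were outlined. Random bases on the barcode strand, the unique molecular identifier (UMI), let PCR copies of 1 molecule be counted once. All sections came from wild-type CD1 IGS mice in the third postnatal week. TH-negative cells were amacrine cells without a stain for tyrosine hydroxylase (TH), the enzyme that marks dopaminergic amacrine cells, and each of their 5 sections also gave a library of TH-positive cells. The GCL was outlined as a whole layer, which holds ganglion cells and displaced amacrine cells, and each of its 4 sections also gave a library of the bipolar cell layer (BCL) and of the outer nuclear layer (ONL). Both groups carried the same 6-base barcode, AGGGTA, so the letters of the barcode do not differ between them.

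The groups belong to separate experiments, so cell type and experiment cannot be told apart in any value below. The 4 layer sections were cut from 1 animal. For the amacrine experiment the methods speak of a source animal in the singular. Amacrine sections were stained with the TH antibody before barcoding and were sequenced on another instrument. The p-values therefore measure the spread between sections, which is technical for the GCL and may be so for TH-negative cells. The 2 count tables shared 17518 gene symbols, of 18415 in the amacrine and 24460 in the layer table. The 9613 genes with 30 or more UMIs over the 9 libraries were tested, and the other 7905 were not.

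Amacrine cells are interneurons of the inner retina that release mostly GABA or glycine and, as a rule, send no axon out of the eye. Ganglion cells are the output neurons of the retina. They release glutamate, fire sodium spikes and send a long axon, rich in neurofilament, through the optic nerve. In the inner nuclear layer amacrine cells neighbour Müller glia and bipolar cells, and some are displaced to the GCL.

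TH-negative libraries held 134394 to 200344 UMIs and GCL libraries 585655 to 785013. Genes with at least 1 UMI numbered 11578 to 13323 and 15510 to 16543. Values are given in CPM, the UMIs of a gene per 1000000 UMIs of its library. Across the genes tested, log2(CPM + 1) of library pairs correlated at 0.741 to 0.8 among TH-negative libraries and at 0.939 to 0.952 among those of the GCL, while pairs across the groups gave 0.712 to 0.802.

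Each of the 4 genes named as markers of the comparison differed. Gad1, which encodes an enzyme that makes GABA, measured 1131, 793, 729, 1168 and 1551 CPM in TH-negative replicates 1 to 5 and 386, 493, 406 and 471 CPM in GCL replicates 1 to 4. The groups did not overlap, and the log2 fold change (TH-negative minus GCL) was 1.29 ± 0.14 (SE, adjusted p = 4.43e-09, edgeR). Pax6, a transcription factor that amacrine and ganglion cells both keep, measured 578, 567, 439, 534 and 705 CPM against 345, 328, 347 and 316 CPM, a log2 fold change of 0.75 ± 0.12 (adjusted p = 7.34e-06). Both genes were thus higher in every TH-negative library than in any GCL library.

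Nefm, a neurofilament subunit, measured 59.2, 17.4, 134, 34.9 and 63.4 CPM in TH-negative cells and 631, 624, 576 and 679.6 CPM in the GCL (log2 fold change −3.43 ± 0.21, adjusted p = 4.81e-16). Pou4f1, a transcription factor of ganglion cells, measured 13.2, 0, 22.3, 9.98 and 14.1 CPM against 166, 223, 191 and 219 CPM (−4.11 ± 0.31, adjusted p = 3.47e-13). Both were low in every population but the GCL, with means of 70.7, 46.1 and 34 CPM of Nefm and 17.9, 16.1 and 12.1 CPM of Pou4f1 in TH-positive cells, the BCL and the ONL. In GRCm39 coordinates Gad1 lies at chr2:70383416-70432372 (+), Pax6 at chr2:105499234-105530952 (+), Nefm at chr14:68320039-68362305 (−) and Pou4f1 at chr14:104699112-104705504 (−), all protein coding. The counting tool was run at its default settings, which ignore strand, and exons of Nefm share 1152 bases with those of Nefl on the opposite strand. Exons of Pax6 share 3393 bases with those of Elp4, likewise on the opposite strand. Both overlaps were read from a later gene annotation than the authors used, so whether they entered these counts was not tested.

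**Figure D1:**
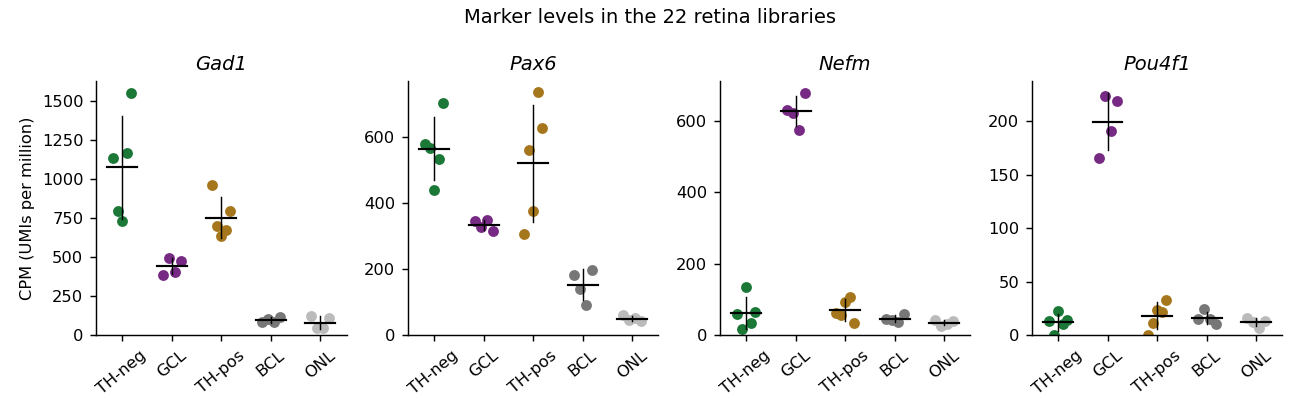
CPM of Gad1, Pax6, Nefm and Pou4f1 in each of the 22 retina libraries. Points are libraries, horizontal bars the group means and vertical bars ± 1 SD (n = 5 for TH-negative and TH-positive, n = 4 for the layers). Gad1 and Pax6 sit above every GCL library in all 5 TH-negative libraries, and Nefm and Pou4f1 are highest in the 4 GCL libraries.

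Of the 9613 genes, 2497 passed an adjusted p of 0.05, or 26%. Of these, 1368 were higher in TH-negative cells (14.2% of those tested) and 1129 in the GCL (11.7%). A difference of at least 2-fold was measured for 609 of the former and 633 of the latter. The groups did not overlap for 777 and 883 of them. Of all genes tested, 8.97% had every TH-negative library above the GCL and 10.8% every one below. The median log2 fold change over all genes was 0.06. The side with more calls depended on the scaling. Higher in TH-negative cells and in the GCL were 1113 and 1299 with TMM factors, 1138 and 1290 with median-ratio factors and 939 and 1039 with DESeq2.

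**Figure D2:**
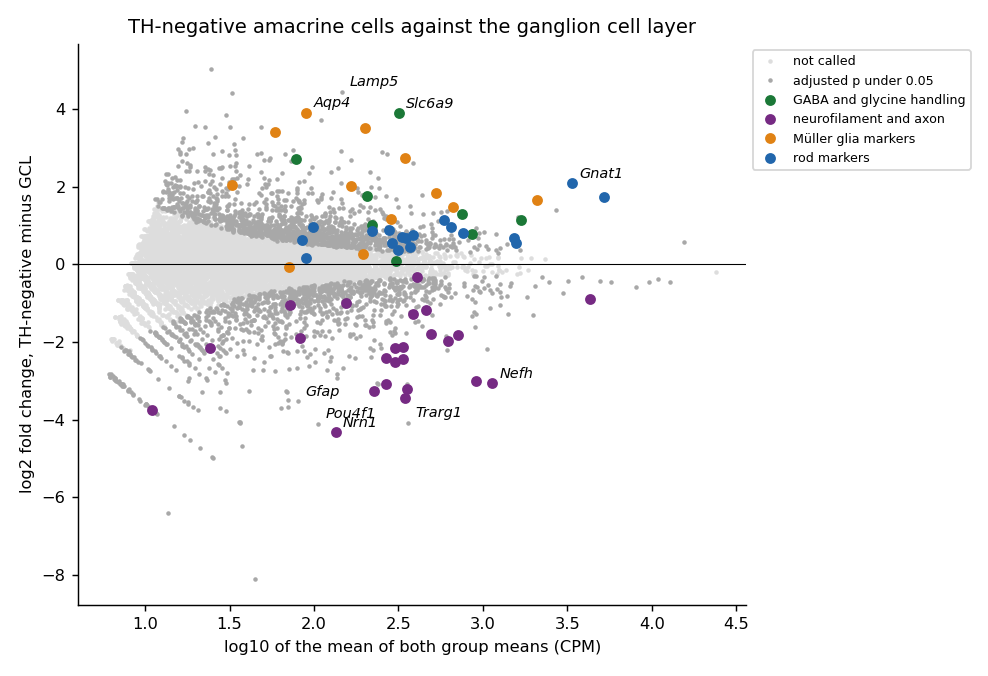
Log2 fold change (TH-negative minus GCL) of the 9613 genes tested, against the log10 of the mean of both group means in CPM. Dark grey points passed an adjusted p of 0.05, and colours mark 4 gene lists. All 24 neurofilament and axon genes lie below 0, and 7 of 8 genes of GABA and glycine handling passed the test above it.

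Among called genes with a group mean of at least 100 CPM, Lamp5, a lysosome-associated membrane protein of inhibitory neurons, had the largest log2 fold change toward TH-negative cells. It measured 309, 307, 156, 319.5 and 310.1 CPM in TH-negative cells and 6.37, 16.5, 15.4 and 13.7 CPM in the GCL, 21.9-fold higher (log2 4.45 ± 0.24, adjusted p = 1.95e-17). TH-positive cells held 255 CPM, and the BCL and ONL 42.2 and 17.8 CPM. Lgr5, a receptor for R-spondin, measured 184, 376, 126.5, 209.6 and 119.8 CPM against 17.8, 18, 12.3 and 13.7 CPM (3.72 ± 0.28, adjusted p = 2.57e-13), and its mean was 164 CPM in TH-positive cells. For both genes all 10 libraries of the amacrine experiment lay above all 12 layer libraries.

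Other genes of this set were higher still on average in the BCL. Neurod4, a transcription factor of retinal interneurons, averaged 368 ± 184 CPM (SD, n = 5) in TH-negative cells, 32.2 ± 8.7 CPM (n = 4) in the GCL and 948 CPM in the BCL. Among the genes taken for size in this direction, Aqp4, Abca8a, Neurod4, Car14 and Ptprz1 had a BCL mean above the TH-negative mean, and Lamp5, Slc6a9, Lgr5, Mfge8, Car2 and Cplx3 did not. Car2 encodes a carbonic anhydrase, Mfge8 a secreted protein that tags cells for uptake, and Ptprz1 a receptor phosphatase of glia.

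Toward the GCL the largest log2 fold change by the same limit was that of Nrn1, which encodes the axon growth protein neuritin. It measured 46, 0, 7.44, 9.98 and 0 CPM in TH-negative cells and 282, 244, 208 and 289 CPM in the GCL (log2 −4.32 ± 0.33, adjusted p = 4.56e-13). Without TH-negative replicate 1, the highest of its group, the log2 fold change was −5.70. Trarg1, known as a regulator of glucose transporter traffic in fat, measured 59.2, 17.4, 37.2, 44.9 and 42.3 CPM against 670.1, 725, 627 and 697 CPM (−4.08 ± 0.19, adjusted p = 2.88e-19). Its means in TH-positive cells, the BCL and the ONL were 65.2, 46.6 and 41.7 CPM. Trarg1 was thus low in each of the other populations and 16.9-fold higher in the GCL than in TH-negative cells. Arpp21, which encodes a cAMP-regulated phosphoprotein of neurons, averaged 10.9 CPM in TH-negative cells, 129 CPM in the GCL and 89.9 CPM in TH-positive cells. Tmem163, a zinc-binding vesicle protein, averaged 9.76 CPM against 131 CPM, and Srgap1, a GTPase regulator of the Slit and Robo pathway, 76.2 CPM against 635 CPM.

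Genes that make, pack and take up GABA and glycine were mostly higher in TH-negative cells. Of 8 tested, 7 were higher there (14.2% of all genes were) and 0 in the GCL, with a median log2 fold change of 1.22 beside 0.06 over all genes. Slc6a9, the glycine transporter of glycinergic amacrine cells, measured 499.7, 509, 558, 649 and 775 CPM in TH-negative cells and 33.1, 57, 39.96 and 29 CPM in the GCL (log2 3.90 ± 0.17, adjusted p = 1.14e-19). Slc6a5, the neuronal glycine transporter, measured 138, 116, 89.3, 155 and 176 CPM against 16.6, 16.5, 29.2 and 20.5 CPM (2.71 ± 0.25, adjusted p = 4.18e-11). These 2 glycine transporters gave the highest log2 fold changes of the list. The groups did not overlap for Slc6a5, and Slc6a9 was named by a rule that asks for no overlap.

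The genes of the GABA side differed by less. Slc32a1, the vesicular transporter of both transmitters, was 3.36-fold higher, Gad1 2.45-fold, Gad2, the other GABA-making enzyme, 2.02-fold, and the GABA transporter Slc6a11 1.72-fold. Abat, which breaks GABA down, did not pass the test at 314 ± 37.2 CPM (SD, n = 5) against 299.7 ± 32.5 CPM (n = 4), a log2 fold change of 0.08 ± 0.13 (adjusted p = 0.704, edgeR). The list took 0.616% ± 0.119 (SD, n = 5) of the UMIs of TH-negative libraries and 0.272% ± 0.0146 (n = 4) of GCL libraries (exact permutation p = 0.00794, two-sided, adjusted over 19 shares 0.0215). Here 0.00794 is the smallest p that all splits of 9 libraries can give. Adjusted values rose to 0.0543 for shares at that p when TH-negative replicate 3 or 4 was left out.

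Transcription factors of amacrine cells differed among themselves. Of 20 tested, 10 were higher in TH-negative cells (50%, against 14.2% of all genes) and 2 in the GCL (10%, against 11.7%), with a median log2 fold change of 0.79. The count in the GCL was 4 with TMM or median-ratio factors. Tfap2b, an AP-2 factor of amacrine and horizontal cells, measured 729.8, 978, 603, 1033 and 881 CPM against 218, 255, 221 and 246 CPM (log2 1.86 ± 0.13, adjusted p = 3.97e-14). Prdm13, which helps specify inhibitory amacrine cells, measured 72.3, 57.9, 104, 165 and 77.5 CPM against 16.6, 10.5, 13.8 and 17.1 CPM (2.73 ± 0.31, adjusted p = 4.74e-09). For neither gene did the groups overlap.

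Tcf4, a basic helix-loop-helix factor, was higher by 2.23 ± 0.16 on the log2 scale, the AP-2 factor Tfap2a by 1.16 ± 0.15 and the homeobox factor Meis2 by 0.87 ± 0.14. Prox1, a homeobox factor of amacrine, bipolar and horizontal cells, was higher by 2.62 ± 0.17, and its BCL mean of 1697 CPM was above the 663 CPM of TH-negative cells. Ebf1, a factor known from subsets of ganglion cells as well, was higher in the GCL (82 against 192 CPM, log2 −1.27 ± 0.21, adjusted p = 8.66e-06). Barhl2, a homeobox factor of amacrine cells, averaged 90.9 ± 35 CPM in TH-negative cells and 95.6 ± 23.3 CPM in the GCL, and Zfhx3, a zinc finger factor, 581 ± 144 and 591 ± 43.4 CPM, and neither passed the test.

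Genes of starburst amacrine cells, the cholinergic type that lies in both layers, gave a mixed count. Of 8 tested, 3 were higher in TH-negative cells (37.5%, against 14.2% of all genes) and 1 in the GCL (12.5%, near 11.7%), with a median of 0.13. Chat, the acetylcholine-making enzyme, measured 26.3, 0, 29.8, 49.9 and 70.5 CPM against 28, 40.5, 38.4 and 32.4 CPM (log2 0.01 ± 0.37). Slc18a3, the vesicular acetylcholine transporter, averaged 47.8 ± 24.4 CPM against 39 ± 4.91 CPM. Neither passed the test, and the groups overlapped for both. The 3 that were higher, Megf10, Megf11 and Slit2, encode surface or secreted proteins, and Megf10 and Slit2 were higher still on average in the BCL (141 and 561 CPM, against 54.4 and 360.2 CPM in TH-negative cells). Isl1, a homeobox factor shared by starburst, ganglion and bipolar cells, was higher in the GCL at 69 against 40.8 CPM, and its BCL mean was 211 CPM. With 1 library left out, calls were lost for Megf11 without TH-negative replicate 1, 2 or 5 or GCL replicate 1, 2 or 4 (adjusted p up to 0.102) and for Isl1 without TH-negative replicate 1, 2 or 5 or GCL replicate 1 or 3 (adjusted p up to 0.169).

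Ganglion cell transcription factors, listed with Rbpms and Rbpms2, which encode RNA-binding proteins that mark ganglion cells, had a median log2 fold change of −3.19. Of 14 tested, 13 were higher in the GCL (11.7% of all genes were) and 0 in TH-negative cells. Rbpms measured 46, 52.1, 74.4, 39.9 and 42.3 CPM in TH-negative cells and 487, 412, 383 and 427 CPM in the GCL (log2 −3.09 ± 0.19, adjusted p = 4.81e-16). Pou4f2, a factor of ganglion cell differentiation, measured 13.2, 5.79, 14.9, 0 and 14.1 CPM against 104, 102, 134 and 133 CPM (−3.70 ± 0.37, adjusted p = 2.77e-10). Rbpms2 averaged 12.8 CPM against 126.2 CPM. The groups did not overlap for Rbpms, and Pou4f2 and Rbpms2 were named by a rule that asks for no overlap.

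Several of these factors were nearly without UMIs in TH-negative cells. Over the 5 libraries Isl2 had 1 UMI, Foxp2 2, Irx2 2 and Pou4f3 3. The 4 GCL libraries held 134, 86, 101 and 184 in the same order. These counts are not scaled, and a GCL library held 585655 to 785013 UMIs in all against 134394 to 200344. Eomes, a factor of melanopsin ganglion cells among others, averaged 13.6 CPM against 85.7 CPM (log2 −2.74 ± 0.39, adjusted p = 8.95e-07), and Opn4, which encodes melanopsin and stands on the axon list below, 8.54 CPM against 39.8 CPM (−2.17 ± 0.67, adjusted p = 0.0132). The GCL values of Opn4 were 62.4, 1.5, 50.7 and 44.4 CPM, so GCL replicate 2 lay at the TH-negative level. The call was lost for Opn4 without TH-negative replicate 1 or GCL replicate 1 (adjusted p up to 0.0591). The list took 0.0209% ± 0.00392 (SD, n = 5) of TH-negative UMIs and 0.149% ± 0.00536 (n = 4) of GCL UMIs, 7.13-fold more (exact permutation p = 0.00794, adjusted 0.0215). In TH-positive cells, the BCL and the ONL the share was 0.0319%, 0.0149% and 0.0179%. In such bulk libraries, fewer cells of a type and less RNA per cell cannot be told apart.

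All 24 tested genes of neurofilaments and ganglion cell axons were higher in the GCL (11.7% of all genes were), with a median log2 fold change of −2.16. For 22 of them every TH-negative library lay below every GCL library, as for 10.8% of all genes. Nefl, the light neurofilament subunit, measured 224, 98.4, 238, 225 and 233 CPM in TH-negative cells and 1566, 1711, 1486 and 1725 CPM in the GCL (log2 −3.01 ± 0.15, adjusted p = 1.53e-18). Nefh, the heavy subunit, measured 322, 139, 223, 309.5 and 211 CPM against 1758, 1674, 2322 and 2344 CPM (−3.06 ± 0.16, adjusted p = 5.2e-18). With Nefm at −3.43, the 3 subunits were 8.04-fold to 10.8-fold higher in the GCL, and TH-negative replicate 2 was the lowest library for each.

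Sncg, a synuclein of ganglion cells, measured 78.9, 46.3, 67, 99.8 and 42.3 CPM against 648, 622, 609 and 683 CPM (log2 −3.22 ± 0.17, adjusted p = 1.37e-17). Slc17a6, the vesicular glutamate transporter of ganglion cells, measured 52.6, 17.4, 37.2, 64.9 and 35.2 CPM against 420.4, 399, 432 and 391 CPM (−3.27 ± 0.20, adjusted p = 5.88e-16). Thy1, a surface marker of ganglion cells, was 3.93-fold higher in the GCL, the axonal motor Kif5a 3.54-fold and Tppp3, which binds tubulin, 8.47-fold. Map1b, which encodes a microtubule-associated protein, had a log2 fold change of −0.88 ± 0.12 and Mapt, which encodes tau, of −0.33 ± 0.12 (adjusted p = 0.0418, edgeR). Gap43, of growing axons, was at −1.05 ± 0.26. The call was lost for Mapt without TH-negative replicate 2, 3 or 4 or GCL replicate 1, 2, 3 or 4 (adjusted p up to 0.097). The list took 0.607% ± 0.108 (SD, n = 5) of TH-negative UMIs and 1.92% ± 0.0752 (n = 4) of GCL UMIs (exact permutation p = 0.00794, adjusted 0.0215).

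**Figure D3:**
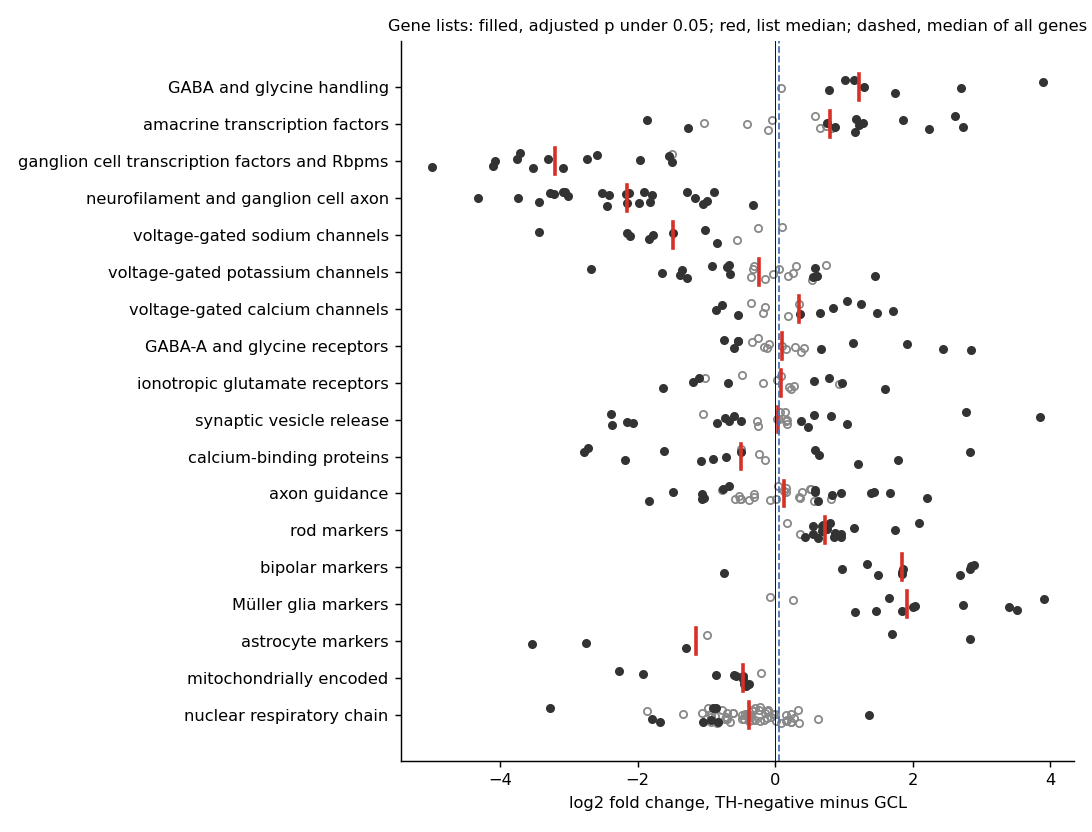
Log2 fold change (TH-negative minus GCL) of the tested members of 18 gene lists. Each circle is a gene, filled where the adjusted p was under 0.05, the red bar is the median of the list and the dashed line the median of all 9613 genes. The neurofilament and ganglion cell lists lie wholly below 0, and the potassium channel, receptor and synaptic lists spread over both directions.

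Voltage-gated ion channels differed by family. Of 11 tested sodium channel genes, 8 were higher in the GCL (72.7%, against 11.7% of all genes) and 0 in TH-negative cells, with a median of −1.49. Scn1a, a spike-generating channel subunit, measured 184, 92.6, 67, 135 and 155 CPM against 504, 439, 446 and 417 CPM (log2 −1.83 ± 0.17, adjusted p = 2.95e-11). Scn2a and Scn8a, which encode other such subunits, were 4.46-fold and 3.42-fold higher in the GCL.

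Of 24 potassium channel genes, 9 were higher in the GCL (37.5%, against 11.7% of all genes), with a median of −0.23. The 4 that were higher in TH-negative cells were 16.7% of the list, near the 14.2% of all genes. Kcnd2, a channel of the A-type current, had the lowest log2 fold change, at 20.8 against 137 CPM (log2 −2.68 ± 0.28, adjusted p = 1.01e-09). Kcna2, a delayed rectifier of axons, was 1.89-fold higher in the GCL. Kcnip3, a calcium-sensing partner of A-type channels, was 2.73-fold higher in TH-negative cells.

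Calcium channel genes gave 7 of 15 higher in TH-negative cells (46.7%, against 14.2% of all genes) and 3 in the GCL (20%, against 11.7%), with a median of 0.35. Cacna1e, an R-type channel, measured 105, 191, 104, 79.9 and 119.8 CPM against 51, 33, 38.4 and 18.8 CPM (log2 1.72 ± 0.26, adjusted p = 2.2e-06), and all 10 amacrine libraries lay above all 12 layer libraries. The L-type gene Cacna1d and the T-type gene Cacna1h were higher by 1.24 ± 0.19 and 1.05 ± 0.20. Cacna1a, the P/Q-type channel of many nerve terminals, was higher in the GCL at 449 against 249 CPM (−0.85 ± 0.13, adjusted p = 2.56e-06). Cacna1h and the accessory subunit gene Cacna2d3, at 192 and 75.7 CPM in TH-negative cells, averaged 554 and 152 CPM in the BCL.

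Receptors for inhibitory and excitatory transmitters showed no common direction. Of 19 GABA-A and glycine receptor genes, 5 were higher in TH-negative cells and 4 in the GCL (26.3% and 21.1%, against 14.2% and 11.7% of all genes, median 0.10), and the former count was 3 with DESeq2. Glra3, a glycine receptor subunit, measured 178, 109.9, 89.3, 135 and 119.8 CPM against 35.7, 49.5, 24.6 and 22.2 CPM (log2 1.92 ± 0.24, adjusted p = 8.51e-08). Gabrr1 and Gabrr2, GABA receptor subunits known from bipolar cells, averaged 44.8 and 40.4 CPM in TH-negative cells against 5.87 and 6.46 CPM, with 283 and 164 CPM in the BCL. With 1 library left out the log2 fold change of Gabrr2 was 1.61 to 2.80, lowest without TH-negative replicate 3. The subunit genes Gabrb2, Gabrg3 and Glrb and the scaffold gene Gphn were higher in the GCL by 0.54 to 0.74 on the log2 scale. Calls were lost for Gabrr2 without TH-negative replicate 3 (adjusted p up to 0.0911), for Gabrb2 without TH-negative replicate 1 (adjusted p up to 0.0697), for Glrb without TH-negative replicate 4 (adjusted p up to 0.0621) and for Gphn without TH-negative replicate 3 or GCL replicate 2 (adjusted p up to 0.0951).

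Of 17 ionotropic glutamate receptor genes, 4 were higher in each direction (23.5%, against 14.2% and 11.7% of all genes, median 0.08). Those higher in the GCL were the NMDA receptor genes Grin1, Grin2a, Grin2d and Grin3a, with Grin2a at 89.3 against 198 CPM (log2 −1.11 ± 0.20, adjusted p = 4.72e-05). Those higher in TH-negative cells were the kainate receptor genes Grik1 and Grik2 and the AMPA receptor genes Gria1 and Gria2, with Grik2 at 171, 191, 37.2, 94.8 and 119.8 CPM against 48.4, 40.5, 39.96 and 32.4 CPM (1.60 ± 0.26, adjusted p = 7.2e-06). The groups overlapped for all 4 genes of the latter set and for none of the former, where 8.97% of all genes had every TH-negative library above the GCL and 10.8% every one below. The BCL mean of Grik1 was 702 CPM, against 113 CPM in TH-negative cells. Calls were lost for Grik1 without TH-negative replicate 3 or 4 (adjusted p up to 0.0715), for Gria1 without TH-negative replicate 2 or 3 (adjusted p up to 0.0764) and for Gria2 without TH-negative replicate 1 or 2 or GCL replicate 2 or 3 (adjusted p up to 0.225).

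Genes of synaptic vesicle release gave 7 higher in TH-negative cells and 9 in the GCL of 26 (26.9% and 34.6%, against 14.2% and 11.7% of all genes). The median of 0.04 was below 0 with TMM factors, median-ratio factors and DESeq2. Slc17a8, the vesicular glutamate transporter of a small amacrine type, measured 19.7, 40.5, 74.4, 109.8 and 35.2 CPM in TH-negative cells and 2.55, 3, 4.61 and 5.12 CPM in the GCL (log2 3.85 ± 0.48, adjusted p = 4.39e-08, 10 UMIs in all GCL libraries). Cplx3, a complexin of ribbon and amacrine synapses, measured 499.7, 549.6, 662, 669 and 705 CPM against 71.3, 114, 78.4 and 97.3 CPM (2.78 ± 0.15, adjusted p = 1.15e-17). The complexin Cplx1 measured 276, 109.9, 320, 225 and 275 CPM against 856, 956, 998 and 1142 CPM (−2.06 ± 0.16, adjusted p = 2.6e-13). These complexins thus differed in opposite directions.

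Syt2, Vamp1 and Sv2c, isoforms of the calcium sensor, of the vesicle SNARE and of a vesicle glycoprotein, were 5.23-fold, 5.18-fold and 4.43-fold higher in the GCL. Of the more general partners, Vamp2 was higher in TH-negative cells by 0.38 ± 0.10 (adjusted p = 0.00463, edgeR) and Snap25 higher in the GCL by 0.84. The calcium sensor gene Syt1 and Pclo, of the active zone, had log2 fold changes of 0.17 and 0.18 and did not pass.

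Calcium-binding proteins, used to tell retinal types apart, gave 5 higher in TH-negative cells and 8 in the GCL of 16 (31.2% and 50%, against 14.2% and 11.7% of all genes, median −0.49). The former count fell to 3 without TH-negative replicate 4 or GCL replicate 4 and with TMM factors, median-ratio factors or DESeq2. Calb2, which encodes calretinin, measured 355, 197, 394, 419 and 549.7 CPM against 1754, 1755, 1465 and 1941 CPM (log2 −2.19 ± 0.15, adjusted p = 1.63e-14). Pvalb, which encodes parvalbumin, averaged 6.29 against 45.3 CPM (5 UMIs in all TH-negative libraries), and Necab2 31 against 208 CPM. Necab1 measured 322, 393, 208, 269.5 and 317 CPM against 93, 68.9, 86.1 and 104 CPM (1.79 ± 0.17, adjusted p = 5.35e-11). The 2 Necab genes, of 1 family, thus differed in opposite directions. Calb1, which encodes calbindin, did not pass at 49.6 against 67.5 CPM.

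Axon guidance genes gave 9 higher in TH-negative cells and 7 in the GCL of 37 tested (24.3% and 18.9%, against 14.2% and 11.7% of all genes, median 0.13), and the former count was 5 with DESeq2. Efnb3, a membrane ephrin, was at 99.2 against 21.9 CPM (log2 2.21 ± 0.27, adjusted p = 4.05e-08) and the semaphorin receptor gene Plxna4 at 118 against 45.8 CPM (1.40 ± 0.22). Robo2, a Slit receptor, measured 217, 260.4, 164, 175 and 183 CPM against 414, 408, 419.6 and 444 CPM (−1.07 ± 0.14, adjusted p = 1.19e-07). Its paralog Robo1 was higher in TH-negative cells by 0.62 ± 0.20 (adjusted p = 0.0172, edgeR). The call was lost for Robo1 without TH-negative replicate 2 or 4 or GCL replicate 1 (adjusted p up to 0.0841). Of 65 cadherin and protocadherin genes, 10 were higher in TH-negative cells, 5 of them gamma protocadherins that share exons, and 7 in the GCL (median 0.20). These are 15.4% and 10.8% of the list, near the 14.2% and 11.7% of all genes, and the former count fell to 5 without TH-negative replicate 2 and with DESeq2. Pcdh7 was among those higher in the GCL at 139 against 396 CPM (−1.51 ± 0.18).

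Neuropeptide and granin genes gave 2 higher in TH-negative cells and 4 in the GCL of 15 tested (13.3%, near the 14.2% of all genes, and 26.7%, against 11.7%, median −0.18). Penk, the enkephalin precursor, measured 6.57, 0, 0, 15 and 14.1 CPM against 38.2, 27, 56.9 and 27.3 CPM (log2 −2.28 ± 0.53, adjusted p = 0.00104). Pdyn, the dynorphin precursor, averaged 28.2 against 9.41 CPM (1.64 ± 0.51, adjusted p = 0.0136), with TH-negative values from 0 to 57.9 CPM. Of 13 immediate early and heat shock genes, Nr4a1 was higher in TH-negative cells, and Egr1, Hsph1 and Jund were higher in the GCL (7.69% and 23.1%, against 14.2% and 11.7% of all genes). Egr1, an early response factor, measured 65.7, 23.1, 29.8, 19.97 and 21.1 CPM against 122, 105, 323 and 78.5 CPM (−2.32 ± 0.42), so GCL replicate 3 stood above the other GCL libraries, and without it the log2 fold change was −1.71. Fos did not pass, at 28.1 against 26.7 CPM. Calls were lost for Pdyn without TH-negative replicate 2 or 4 (adjusted p up to 0.122), for Nr4a1 without TH-negative replicate 1 or 4 or GCL replicate 2 or 3 (adjusted p up to 0.0723), for Hsph1 without TH-negative replicate 1, 2 or 5 or GCL replicate 1 or 3 (adjusted p up to 0.14) and for Jund without TH-negative replicate 1, 2 or 4 or GCL replicate 1 or 2 (adjusted p up to 0.198).

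Markers of the cells around the amacrine zone were present in both groups and differed between them. Of 12 Müller glia markers 10 were higher in TH-negative cells and 0 in the GCL (median 1.92), of 11 bipolar markers 10 and 1 (1.85), and of 18 rod markers 16 and 0 (0.73), where 14.2% and 11.7% of all genes were. With DESeq2 8 rod markers were higher in TH-negative cells. Glul, the glutamine synthetase of Müller glia, measured 2492, 3373, 4092, 3195 and 2636 CPM against 953, 1067, 1068 and 929 CPM. Rlbp1, a retinoid-binding protein of Müller glia, averaged 604 ± 173 CPM (SD, n = 5) against 89.3 ± 17.3 CPM (n = 4), Aqp4, their water channel, 169 ± 96.4 against 11.2 ± 4.82 CPM, and Dkk3, a secreted protein, 829.5 ± 114 against 232 ± 27.1 CPM. The potassium channel gene Kcnj10 and the filament gene Vim did not pass.

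As shares of all UMIs, Müller markers took 0.572%, 0.76%, 0.885%, 0.743% and 0.644% of the TH-negative libraries and 0.214%, 0.24%, 0.232% and 0.206% of the GCL libraries (exact permutation p = 0.00794, adjusted 0.0215). The mean BCL share was 0.926%. Bipolar markers took 0.135%, 0.29%, 0.337%, 0.176% and 0.0888% against 0.0534%, 0.0691%, 0.0644% and 0.05% (exact permutation p = 0.0238, adjusted 0.0377) and 0.953% in the BCL. Rod markers took 2.79%, 1.12%, 2.73%, 2.82% and 2.18% against 0.76%, 1.09%, 1.23% and 0.8% (exact permutation p = 0.0238, adjusted 0.0377) and 9.89% in the ONL. TH-negative replicates 2 and 3 were highest in bipolar markers, and replicate 2 was lowest in rod markers. The call of the rod share was lost without TH-negative replicate 1, 3, 4 or 5 or GCL replicate 1, 2, 3 or 4 (adjusted p up to 0.0987) and that of the bipolar share without TH-negative replicate 3 or 4 or GCL replicate 1, 2, 3 or 4 (adjusted p up to 0.0848). The part of these cells in the differences of other genes was not tested.

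Cone markers (0.0179% against 0.012%) and pigment epithelium markers (0.0085% against 0.00393%) did not differ past the permutation test (exact p = 0.0873 and 0.111). Of the 5 cone markers tested singly, the cone opsin gene Opn1mw was higher in TH-negative cells (20%, near the 14.2% of all genes) and the other 4 did not pass. Of the pigment epithelium markers, Ttr alone reached the minimum and did not pass, and the defining genes Rpe65 and Lrat were under the minimum. Of 4 tested horizontal cell markers only Tfap2b passed (25%, against 14.2% of all genes), which amacrine cells also use, and Onecut1 and Lhx1 were under the minimum. The call was lost for Opn1mw without TH-negative replicate 3 (adjusted p up to 0.0604). Through Tfap2b the horizontal share was 0.102% against 0.045% (exact permutation p = 0.00794).

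Markers of cells on the nerve fiber side were partly higher in the GCL. Of 6 astrocyte markers 3 were higher in the GCL and 2 in TH-negative cells (50% and 33.3%, against 11.7% and 14.2% of all genes). The list took 0.0116% ± 0.00271 (SD, n = 5) of TH-negative and 0.029% ± 0.00382 (n = 4) of GCL UMIs (exact permutation p = 0.00794, adjusted 0.0215). Gfap, the astrocyte filament, measured 26.3, 5.79, 14.9, 15 and 0 CPM against 106, 165, 179.8 and 143 CPM (log2 −3.53 ± 0.35, adjusted p = 2.5e-10), and Pdgfra, a growth factor receptor, 39.2 against 96 CPM. Aldh1l1 and Agt, on the same list, were higher in TH-negative cells at 24.8 and 28.1 CPM against 7.74 and 3.98 CPM. These calls were lost for Aldh1l1 without TH-negative replicate 4 (adjusted p up to 0.12) and for Agt without TH-negative replicate 2 (adjusted p up to 0.064). That library held 81 CPM of Agt, and without it the log2 fold change fell from 2.84 to 1.86. Microglia markers took 0.00397% against 0.0115% (exact permutation p = 0.0159, adjusted 0.0335). That call was lost without TH-negative replicate 3 or 4 (adjusted p up to 0.0543), where fewer splits make the smallest p larger. Csf1r, a receptor of microglia, was the 1 of 4 tested genes to pass (25%, against 11.7% of all genes higher in the GCL).

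Vessel genes ran both ways. Of 7 endothelial and pericyte markers 2 were higher in TH-negative cells and 3 in the GCL (28.6% and 42.9%, against 14.2% and 11.7% of all genes). The former count was 1 without TH-negative replicate 2 or 3 or GCL replicate 2 or 3 and with TMM factors, median-ratio factors or DESeq2. Their share did not differ past the test (0.0588% against 0.0674%, exact permutation p = 0.206). Rgs5, of pericytes, measured 118, 23.1, 59.5, 69.9 and 84.6 CPM against 417, 342, 269 and 434 CPM, and Pecam1, of endothelium, averaged 10.8 against 30.4 CPM. Kdr, a receptor for vascular growth factor, was higher in TH-negative cells at 348 against 87.2 CPM, with 833 CPM in the BCL. Notch3, of arterial muscle, measured 129, 165, 39.96 and 157 CPM in the GCL and averaged 12.9 CPM in TH-negative cells. Acta2, smooth muscle actin, singled out after its values were seen, measured 102, 125.9, 7.68 and 121 CPM in the GCL and had no UMI in any TH-negative library. It was at least 23.9-fold higher over the GCL, with a floor of 3 UMIs over the TH-negative group that covers counting error only. Notch3 and Acta2 were both lowest in GCL replicate 3. Hbb-bs, a hemoglobin gene, averaged 3.31 against 32.8 CPM, with GCL values from 1.27 to 80.2 CPM. Calls were lost for Pecam1 without TH-negative replicate 1 or 4 (adjusted p up to 0.0703) and for Hbb-bs without TH-negative replicate 3 or GCL replicate 4 (adjusted p up to 0.11).

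**Figure D4:**
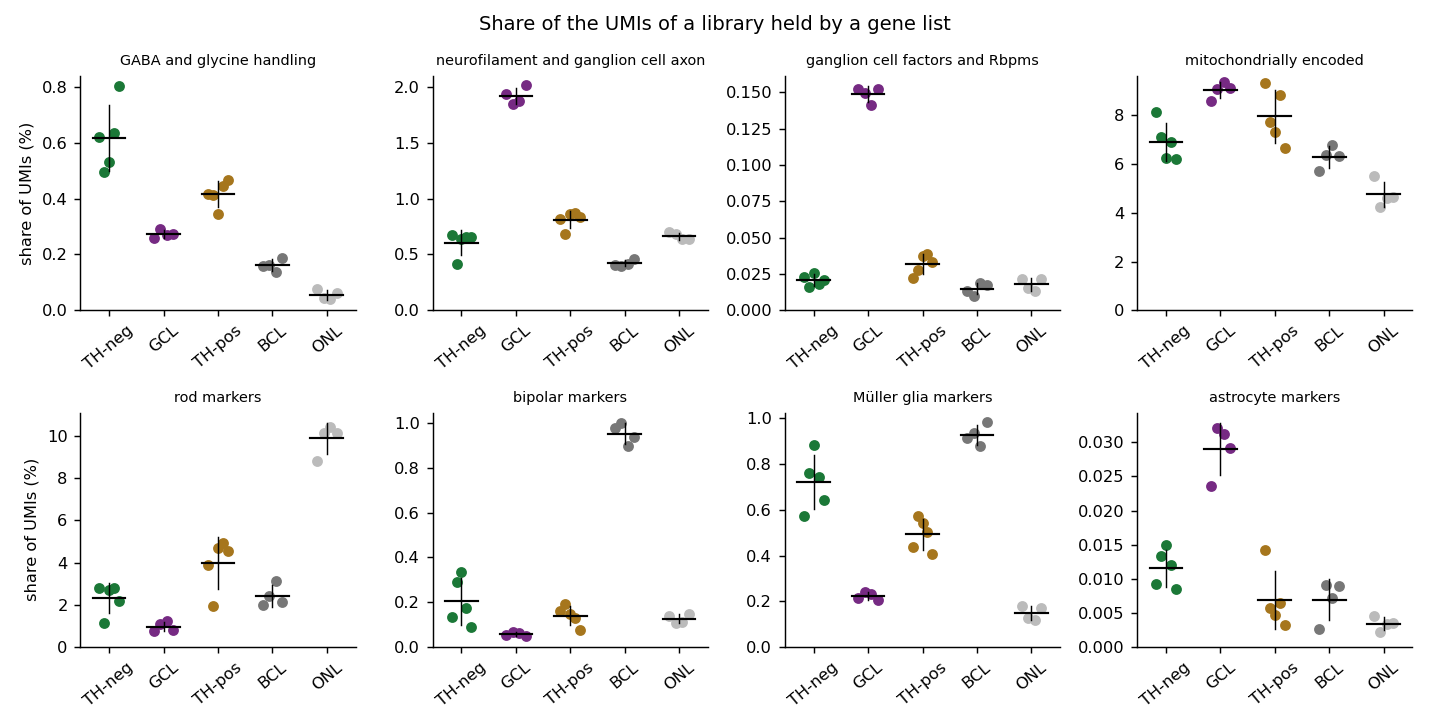
Share of the UMIs of each library held by 8 gene lists, in percent. Points are libraries, horizontal bars the means and vertical bars ± 1 SD (n = 5 for TH-negative and TH-positive, n = 4 for the layers). The mean Müller glia share of TH-negative cells, 0.721%, lies between 0.223% in the GCL and 0.926% in the BCL, and the 2 ganglion cell lists are highest in the GCL.

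Most mitochondrially encoded genes were higher in the GCL. Of 12 tested 11 were higher there and 0 in TH-negative cells (91.7% and 0%, against 11.7% and 14.2% of all genes, median −0.46). The genes took 6.92% ± 0.778 (SD, n = 5) against 9.04% ± 0.326 (n = 4) of the UMIs (exact permutation p = 0.0159, adjusted 0.0335). The call of that share was lost without TH-negative replicate 3 or 4 (adjusted p up to 0.0543), where fewer splits make the smallest p larger. The groups did not overlap, at most 8.12% in TH-negative and at least 8.59% in GCL libraries. mt-Co1, a subunit of cytochrome oxidase, was 1.37-fold higher in the GCL. mt-Tl1, a transfer RNA gene, had the largest difference of the list at 26.3, 28.9, 37.2, 39.9 and 63.4 CPM against 157, 186, 204 and 212 CPM, and its BCL and ONL means were 261 and 211 CPM. Of 67 nuclear genes of the respiratory chain 8 were higher in the GCL and 1 in TH-negative cells (median −0.38). The former are 11.9% of the list, near the 11.7% of all genes, and their count was 5 without TH-negative replicate 1 or 2 or GCL replicate 2 and with DESeq2. Of 23 ribosomal protein genes 2 were higher in the GCL (8.7%, median −0.28). Of 13 histone genes, replication-independent ones included, 1 was higher in each direction (7.69%, under the 14.2% and 11.7% of all genes). Among 9 small RNA genes and microRNA host genes, 4 host genes, Mir124a-1hg among them, were higher in TH-negative cells, and Rny1, Rny3 and Mir6240 in the GCL (44.4% and 33.3%, against 14.2% and 11.7% of all genes). The call was lost for Rny1 without TH-negative replicate 1 or 4 or GCL replicate 2 or 4 (adjusted p up to 0.108).

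Gene length moved with the direction of the difference. The median log2 fold change was −0.42 for the 100 genes with exons under 1 kb, −0.29 for 579 genes of 1 to 2 kb, −0.09 for 1116 of 2 to 3 kb, 0.02 for 2663 of 3 to 5 kb and 0.15 for 5141 over 5 kb. Among the shortest, 3% were higher in TH-negative cells and 29% in the GCL, and among the longest 18.6% and 11.1%. The part of length in the values of the gene lists was not tested.

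The other libraries of each experiment show how a gene behaved outside the groups compared. All 5 TH-negative values lay above all 12 layer libraries for 150 of the 1368 genes higher in TH-negative cells, or 11% (1.66% of all genes tested), and below them for 34 of the 1129 genes higher in the GCL, or 3.01% (0.427% of all). For 35 genes all 10 libraries of the amacrine experiment, TH-positive ones included, lay above all 12 layer libraries, and they include Gad1, Slc32a1, Slc6a9, Tfap2a, Tfap2b, Lamp5, Necab1 and Slc17a8. Lars2, the mitochondrial leucyl-tRNA synthetase, singled out after its values were seen, is also among them at means of 18590 CPM in TH-negative cells and 12510, 9188 and 6735 CPM in the GCL, BCL and ONL.

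For 12 genes all 10 amacrine libraries lay below all 12 layer libraries, and those named here were singled out after the values were seen. Nos3, the nitric oxide synthase of endothelium, measured 0, 0, 0, 0 and 7.05 CPM in TH-negative cells and averaged 2.29 CPM in TH-positive cells, against 21.6, 101 and 87.3 CPM in the GCL, BCL and ONL. Parp14, a poly-ADP-ribose polymerase family member, averaged 1.41 CPM in TH-negative cells and 0 in TH-positive cells, against 35.4, 76 and 17.1 CPM. Fth1, the ferritin heavy chain, averaged 140.2 and 158 CPM against 391, 336 and 439 CPM. For these genes too, cell class and experiment cannot be told apart, since no amacrine population was outlined in the layer experiment.

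Rod genes can be set against each other, since rods were outlined in neither group. Gnat1, the rod transducin, was at 2.91 ± 0.485 UMIs per UMI of Sag, the rod arrestin, in TH-negative libraries (SD, n = 5) and at 2.86 ± 0.28 in TH-positive ones (n = 5). In the GCL, BCL and ONL the ratio was 1.11 ± 0.0809, 1.3 ± 0.148 and 0.998 ± 0.0998 (n = 4 each). Of 16 rod genes set against Sag here, Gnat1 had all 10 amacrine libraries above all 12 layer libraries, and none had all below. It was thus singled out after its values were seen. As a single gene, Gnat1 differed by 2.09 ± 0.19 on the log2 scale between TH-negative cells and the GCL, and Sag by 0.68 ± 0.18, which passed in edgeR and not in DESeq2 (adjusted p = 0.106).

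**Figure D5:**
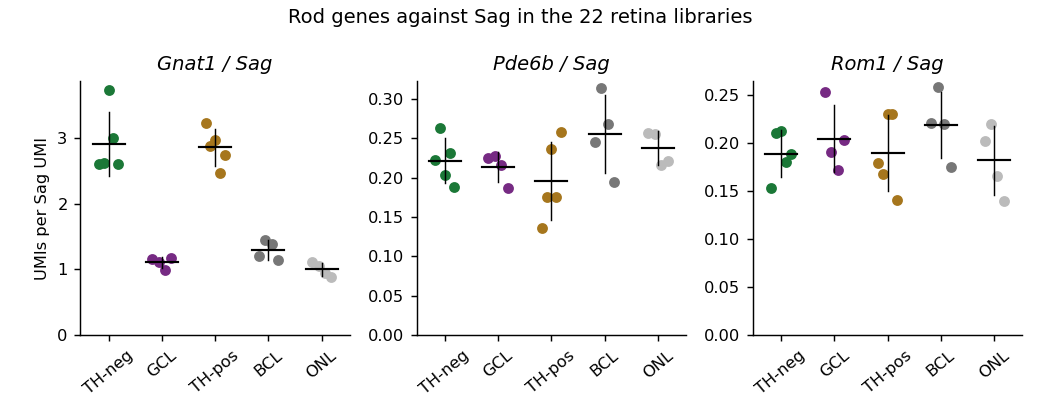
UMIs of Gnat1, Pde6b and Rom1 per UMI of Sag in each of the 22 retina libraries. Points are libraries, horizontal bars the means and vertical bars ± 1 SD (n = 5 for TH-negative and TH-positive, n = 4 for the layers). Gnat1 is higher against Sag in all 10 amacrine libraries than in all 12 layer libraries, which is not so for Pde6b and Rom1.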

How the data were processed

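Light-Seq cDNA of fixed mouse retina sections was sequenced and counted per gene. The authors aligned reads with STAR 2.7.9a, collapsed UMIs with UMI-tools 1.1.1, used SAMtools 1.9 and deposited counts per gene from featureCounts, unnormalized, on the mm39 build. Here the amacrine and layer tables were joined by gene symbol, and genes with at least 30 UMIs over the 9 libraries were kept. edgeR 4.0.16 (R 4.3.3) fitted a quasi-likelihood model with library totals as scaling and no other factor, with Benjamini-Hochberg adjustment. The SE of a log2 fold change was derived from that test, as its absolute value divided by the square root of the F statistic. Alternatives were TMM and median-ratio factors, DESeq2 1.42.0, other filters, a replicate block and leaving out each library. Shares of UMIs were compared by an exact two-sided permutation test, adjusted over 19 shares. On simulated counts for 9613 genes, 200 of them changed, 46% of genes changed 2-fold and 87% changed 4-fold were recovered. Of 139 calls 6 were false. Fewer genes were changed there than were called here, and all had the same dispersion, so these rates need not hold for the real comparison. Named genes were the 4 markers, per direction the 12 with the largest change among called genes with a group mean of at least 100 CPM and no overlap, the 5 other called genes with the smallest p, and members of the gene lists. Genes outside that rule are named as such, and some genes are not reported here. Members and lists were chosen with earlier results of these data known. Coordinates and exon overlaps came from a later GENCODE release (GRCm39) than the authors used. Gene lengths were those the authors gave.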

Additional observations from a re-analysis of the deposited data

Results flagged for a closer look

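In 24 of 324 groups of 4 or 5 libraries, 1 library lay far from the others of its group by Dixon's test at the 95% level, where chance gives about 1 in 20. GCL replicate 1 lay above the rest of its group for Grin2d (113 CPM). GCL replicate 1 lay below the rest of its group for Rbpms2 (104 CPM). GCL replicate 3 lay above the rest of its group for Aqp4 (18.4 CPM) and Robo1 (109 CPM). GCL replicate 3 lay below the rest of its group for Aldh1l1 (1.54 CPM). GCL replicate 4 lay above the rest of its group for Irx2 (56.4 CPM). TH-negative replicate 1 lay above the rest of its group for Nrn1 (46 CPM), Egr1 (65.7 CPM) and Isl2 (6.57 CPM). TH-negative replicate 1 lay below the rest of its group for Gabrb2 (26.3 CPM). TH-negative replicate 2 lay above the rest of its group for Agt (81 CPM). TH-negative replicate 2 lay below the rest of its group for Nefl (98.4 CPM), Map1b (2019 CPM) and Rom1 (185 CPM). TH-negative replicate 3 lay above the rest of its group for Ebf1 (141 CPM). TH-negative replicate 3 lay below the rest of its group for Lamp5 (156 CPM) and Pclo (967 CPM). TH-negative replicate 4 lay above the rest of its group for Sv2c (155 CPM). TH-negative replicate 5 lay above the rest of its group for Meis2 (359 CPM), Nos3 (7.05 CPM) and Parp14 (7.05 CPM). For Isl2, Nos3 and Parp14 the other TH-negative values were all 0, so any count in 1 library would be flagged. Of the shares of UMIs, those far from their group were the share of pigment epithelium markers, lowest in TH-negative replicate 2 at 0.000579% of UMIs, the share of neurofilament and ganglion cell axon, lowest in TH-negative replicate 2 at 0.415% of UMIs and the share of cytosolic ribosomal proteins, highest in GCL replicate 2 at 0.105% of UMIs.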

How the results depend on the processing

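The count of genes that passed was 2497, and it stayed within 1.5 times that number in each other fit of all genes. It was 2412 with TMM factors, 2428 with median-ratio factors, 1978 with DESeq2, 2707 with no filter, 2096 at 100 or more UMIs and 2444 without mitochondrially encoded genes, and 2122 to 2428 when 1 library was left out. Asking for at least a 2-fold difference as well left 1242, of which 609 were higher in TH-negative cells and 633 in the GCL. Of 131 named genes that passed, 25 lost their call under at least 1 alternative. DESeq2 ended those of 12, Gabrr2, Gria2, Grik1, Hbb-bs, Isl1, Megf11, Nr4a1, Pde6b, Rny1, Robo1, Rom1 and Sag. TMM and median-ratio factors each ended those of Gria2 and Megf11, and no filter those of Hsph1 and Mapt. With no filter 1627 genes were higher in TH-negative cells and 1080 in the GCL, at a median log2 fold change of 0.24 over all genes. Of 62 counts of list members, 26 moved by over 1.5 times in at least 1 alternative, 9 of them counts of at least 4 and 17 smaller ones, which moved by at most 2 members. The cause was not tested.

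Replicate numbers are shared by the labels of both groups, which come from separate experiments. Same-numbered libraries deviated together at correlations of −0.0461 to 0.0337, so the samples share only a number. A replicate block was fitted on replicates 1 to 4 only, so that fit also left out TH-negative replicate 5. In it 2281 genes passed, and the log2 fold changes of Chat (−0.38) and Slc18a3 (−0.0454) turned. Without TH-negative replicate 5 and with no block they were −0.34 and −0.0306. Neither gene passed in any of these fits. In the block fit 6 named genes lost their calls, Gphn, Hsph1, Isl1, Mapt, Megf11 and Robo1. Of these, Hsph1, Isl1 and Megf11 also lost theirs without TH-negative replicate 5 and with no block.

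Chat, at 0.01 as reported, also turned with TMM factors (−0.068), median-ratio factors (−0.0628), DESeq2 (−0.0659) and without mitochondrially encoded genes (−0.0206). With 1 library left out the log2 fold changes were −0.34 to 0.36 for Chat, −0.24 to 0.12 for Barhl2, −0.34 to 0.26 for Fos, −0.0306 to 0.48 for Slc18a3, −0.24 to 0.0848 for Vim and −0.19 to 0.0431 for Zfhx3, none of which had passed.

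Shares of UMIs, as TH-negative minus GCL in percentage points, crossed the adjusted threshold in at least 1 fit with a library left out. Calls were lost for rod markers (1.24 to 1.66), bipolar markers (0.113 to 0.175), Müller glia markers (0.457 to 0.535), horizontal cell markers (0.0537 to 0.0634), astrocyte markers (−0.0193 to −0.0164), microglia markers (−0.00867 to −0.00674), erythrocyte markers (−0.00433 to −0.00152), GABA and glycine handling (0.298 to 0.374), amacrine factors (0.192 to 0.209), ganglion cell factors (−0.131 to −0.127), neurofilament and axon genes (−1.33 to −1.26) and mitochondrially encoded genes (−2.42 to −1.94). Calls were gained for cone markers (0.00428 to 0.00805), pigment epithelium markers (0.00381 to 0.00654), endothelial and pericyte markers (−0.0144 to −0.00497), ribosomal proteins (−0.0129 to −0.00358), the respiratory chain (−0.0744 to −0.0369) and histones (0.00622 to 0.012). Small noncoding RNAs had no stable sign (−0.0143 to 0.0281), with −0.00888 without mitochondrially encoded genes. With 4 TH-negative libraries left there are fewer splits, so the smallest p is larger. A count of 0 over the 5 TH-negative libraries allows up to 3.74 CPM, for counting error only.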
